A study of Mus musculus with 9 samples.

Results

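The stem cell and leukaemia regulators described here are 31 genes chosen by name, from what is known of them in blood stem cells and acute myeloid leukaemia. They were chosen with earlier results of these data known. Of these, 29 had a probe set on the arrays, among 19572 probe sets that carried 1 gene symbol, and each was represented by 1 probe set; the expression of Hoxa7 and Hoxa9 was not analysed here. The 29 comprised 4 surface proteins (Kit, Flt3, Cd34 and Prom1), 4 homeobox genes (Hoxa5, Hoxa10, Meis1 and Pbx3) and 6 transcription factors of the stem cell core (Runx1, Gata2, Fli1, Erg, Lmo2 and Tal1). A further 9 were other nuclear regulators (Myc, Myb, Mecom, Mn1, Sox4, Ikzf1, Ikzf2, Etv6 and Wt1), and 6 were chromatin regulators (Bmi1, Ezh2, Asxl1, Men1, Dnmt3a and Tet2).

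Blood stem cells are kept in their state by a core of DNA-binding factors, among them RUNX1, FLI1, ERG, GATA2, LMO2 and TAL1, that occupy shared enhancers, while KIT and FLT3 carry growth factor signals from the membrane. In many acute myeloid leukaemias a HOXA, MEIS1 and PBX3 programme, held on by menin at chromatin, keeps the cells renewing themselves. BMI1 and EZH2 belong to Polycomb complexes that silence genes in stem cells, and ASXL1, DNMT3A and TET2 are chromatin and DNA methylation enzymes or cofactors that are often mutated in human myeloid leukaemia. ZEB1 is a zinc finger repressor, best known from epithelial to mesenchymal transition, that binds E-box sequences.

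The arrays held RNA of C1498, a transplantable mouse leukaemia line used as a model of acute myeloid leukaemia. The cells were infected with a lentivirus that carried green fluorescent protein (GFP) and either a negative control construct (Scr, arrays numbered 7, 8 and 9), a short hairpin RNA (shRNA) against Zeb1 called seq C (arrays 10, 11 and 12) or another called seq D (arrays 13, 14 and 15). GFP-positive cells were collected 2 weeks after infection, so the controls had also been infected and sorted, and every group rests on a selected pool of 1 cell line. The comparison asks which genes differ when Zeb1 is depleted, with both hairpins set against the same 3 control arrays and against each other. Nothing in the labels ties the arrays to separate infections, so each p-value measures only how far these samples spread, and that spread may be technical.

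All levels are log2 RMA signals, a probe set's brightness after background correction and scaling between arrays; 1 unit is a doubling. As a low mark, the level below which 95% of 1412 olfactory and vomeronasal receptor probe sets lay was 7.26, called here the receptor level, and 47.9% of all probe sets lay above it. Zeb1 itself was 10.46 ± 0.15 (SD, n = 3) with Scr, 10.25 ± 0.21 with seq C and 9.41 ± 0.15 with seq D. With seq D it fell by 1.05 ± 0.16 (SE) on the log2 scale, to 48.3% of the control signal (limma adjusted p = 0.0263), whereas with seq C the change was -0.20 ± 0.16 (adjusted p = 0.895). The Zeb1 call for seq D was lost when array 7, 8, 9, 14 or 15 was left out, with adjusted p up to 0.157, and the 95% interval for seq C, -0.57 to 0.17, includes no change. Of 15 myeloid markers, 2 (Mpo and Fcgr1) lay above the receptor level and the myeloid transcription factors Spi1 and Cebpa did not, while 6 of 12 T and NK cell markers did, Cd3e among them at 14.65 in the controls. The mean level of those 12 T and NK markers was 7.88 to 8.13 on the Scr arrays, 8.77 to 9.32 with seq C and 8.02 to 8.33 with seq D. That mean does not describe each marker: with seq C their differences ran from -0.94 to 5.93 with a median of 0.19. With seq C, 2 of the 12 (Nkg7 and Gzmb) were called higher, where 0.659% of all probe sets were. By its mean over all arrays, 1 of these 2 lay above the receptor level. The mean of 11 erythroid, megakaryocyte and mast markers also lay above Scr, where it was 7.5 to 7.53. It was 7.73 to 7.88 with seq C and 7.69 to 7.84 with seq D. Only with seq D did the mean of 5 B cell markers, 6.59 to 6.68, lie above its Scr range of 6.43 to 6.44. The means of the pan-leukocyte, myeloid and stromal lists overlapped the controls. The part of these markers in the results below was not tested. Within groups, 57.9% of the spread between arrays lay on 1 axis, with Scr 8, C 12, D 14 and D 15 on one side and the other 5 arrays on the other.

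No member was called in either comparison with the controls, and 1, Bmi1, was called between the hairpins. At an adjusted p under 0.05, 0 of 29 members were called with seq C against a background of 0.945% of all probe sets, 0 of 29 with seq D (background 0.843%) and 0 of 29 for the mean of both hairpins (background 0.828%). Between seq D and seq C, 1 of 29 was called, against 0.848%. At an unadjusted p under 0.05, the counts in limma were 2 members with seq C (8.77% of all probe sets), 5 with seq D (13.6%), 3 for the mean of both (11%) and 6 between the hairpins (11.7%). Only limma was run for these counts. Since the comparisons share arrays, their counts are not independent of each other.

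Some members were bright on every array, such as the lymphoid regulator Ikzf1 (Ikaros), at 15.44 in the controls, and others were dim. Above the receptor level stood 15 members: Pbx3, Runx1, Fli1, Myc, Myb, Mn1, Ikzf1, Ikzf2, Etv6 and all 6 chromatin regulators. The other 14 did not, and these included all 4 surface proteins, both measured Hoxa genes and Meis1, and 4 of 6 genes of the stem cell core. A probe's brightness also depends on its sequence, so these levels place a gene against the receptor level and do not rank one gene against another.

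**Figure D1:**
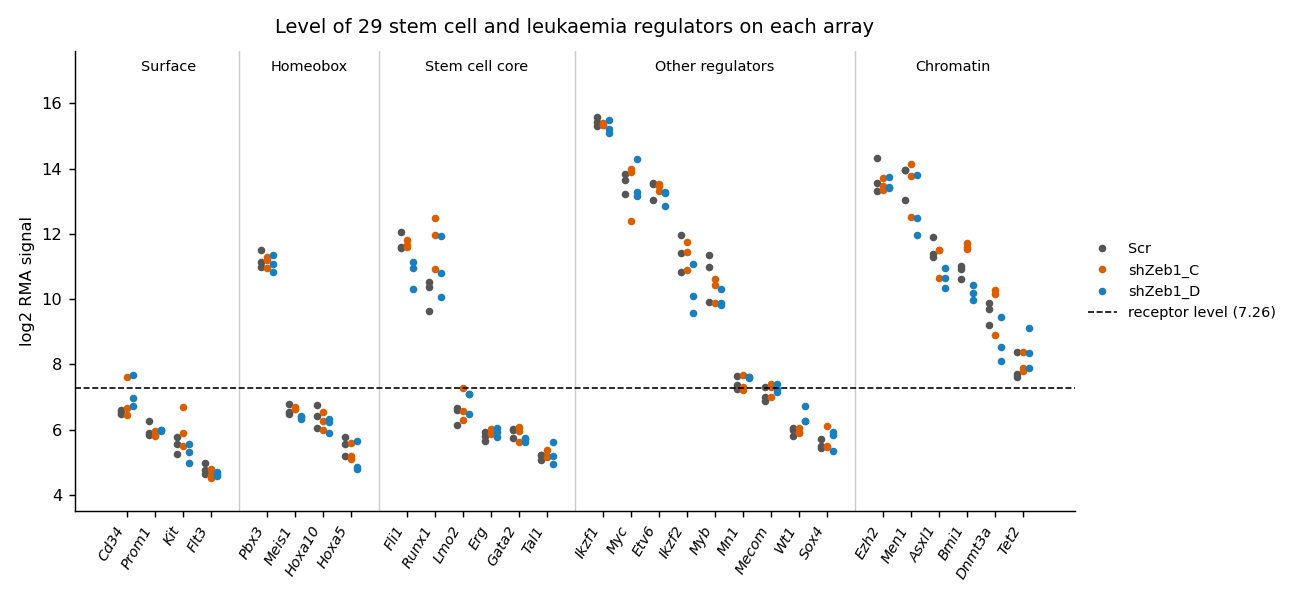
Log2 RMA signal of the 29 measured regulators (vertical axis), ordered by role along the horizontal axis, with each of the 3 arrays of Scr, shZeb1_C and shZeb1_D as a point and the receptor level of 7.26 as a dashed line. The group means of the surface proteins all lie below the line and every array of the chromatin regulators above it, and for most genes the points of the 3 groups overlap.

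Bmi1, the RING finger subunit of Polycomb repressive complex 1 that keeps blood stem cells self-renewing, was the member that separated the hairpins. Its signal was 11.02, 10.61 and 10.93 on the Scr arrays, 11.61, 11.73 and 11.55 with seq C, and 10.20, 10.44 and 9.96 with seq D. The 3 groups did not overlap anywhere: seq C lay above the controls and seq D below them. Seq D was lower than seq C by 1.43 on the log2 scale (SE 0.17, 95% interval -1.82 to -1.04), at 37.1% of its signal, with a limma adjusted p of 0.00793, the call named above; 0.542% of all probe sets were called lower in that comparison. An exact two-sided permutation test of these 3 against 3 arrays gave p = 0.1, the smallest it can give. Against the controls neither hairpin passed the threshold: seq C stood at 0.78 ± 0.17 (adjusted p = 0.0955, 171% of the control signal) and seq D at -0.65 ± 0.17 (adjusted p = 0.15, 63.6%). The mean of both hairpins lay at 0.06 from the controls (adjusted p = 0.927), because the directions were opposite. In bulk RNA, a change in the share of cells with a transcript and a change in its amount per cell cannot be told apart.

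By their median, the genes beside Bmi1 did not show its difference between the hairpins. Its neighbours were taken as the 30 nearest genes above the receptor level on chromosome 2, from Il15ra to Ehmt1. They had a median difference of 0.11 between seq D and seq C, with 13 of 30 negative. Their median was -0.11 between seq C and Scr and 0.06 between seq D and Scr. The part of this stretch in the values of Bmi1 was not tested. The genes around other genes below were also only those above the receptor level. Bmi1 also departed little along the axis that separated arrays within groups, which held 13.7% of its own spread against a median of 56.9% over the 9383 probe sets above the receptor level.

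**Figure D2:**
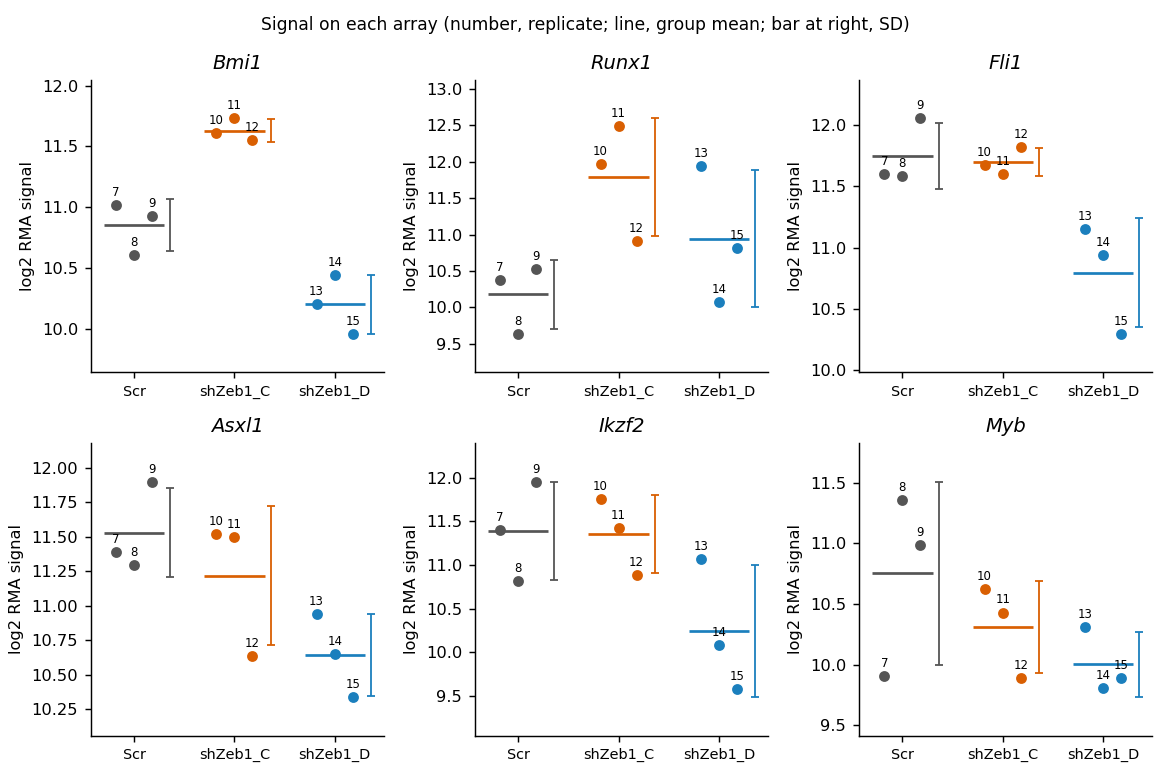
Log2 RMA signal of selected regulators (vertical axis) on each array of Scr, shZeb1_C and shZeb1_D (horizontal axis), with the replicate number beside each point, the group mean as a line and the SD as a bar. In the Bmi1 panel the 3 groups are apart, with shZeb1_C at 11.63 ± 0.09, Scr at 10.85 ± 0.22 and shZeb1_D at 10.20 ± 0.24, while in the Myb panel Scr 7 lies among the hairpin arrays.

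The promoters of Bmi1 and of Runx1 are shown because these genes had the member call between hairpins and the largest difference from the controls. Sequences are from RefSeq (GRCm38.p6), 5′ to 3′ on the gene's strand, and end at the base before the annotated start. Capitals mark a Zeb1-type E-box (CAGGTG, or CACCTG as its other strand) and the Myc-type E-box (CACGTG, the same on both strands). The Bmi1 window lies at chr2:18676768-18677017 on the plus strand, and the window of the distal Runx1 start at chr16:92826075-92826324 on the minus strand.
Bmi1: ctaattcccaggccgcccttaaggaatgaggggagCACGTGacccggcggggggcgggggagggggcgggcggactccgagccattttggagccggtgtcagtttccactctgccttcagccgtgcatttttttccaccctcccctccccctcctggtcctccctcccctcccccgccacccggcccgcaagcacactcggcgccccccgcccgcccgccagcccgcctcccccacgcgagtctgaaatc
Runx1 distal: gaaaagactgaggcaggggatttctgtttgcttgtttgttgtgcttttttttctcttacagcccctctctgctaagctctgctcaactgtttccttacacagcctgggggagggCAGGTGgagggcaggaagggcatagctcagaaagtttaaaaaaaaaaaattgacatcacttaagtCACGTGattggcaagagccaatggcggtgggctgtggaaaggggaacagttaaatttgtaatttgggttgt

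The Bmi1 window held the Myc-type motif, beginning 215 bases before the start, and neither letter order of the Zeb1-type motif. The distal Runx1 window held the Zeb1-type motif at 136 bases and the Myc-type motif at 71 bases before the start, and the proximal Runx1 window held neither. Over 38 windows of 250 bases from 24 of the 31 listed genes (Hoxa7 and Hoxa9 among them), the Zeb1-type motif was in 3 (Erg, Prom1 and distal Runx1), against 17.2% of 32851 mouse windows of that length. The Myc-type motif was in 3 (Bmi1, Dnmt3a and distal Runx1), against 6.02%, and 1.08% of all windows held both. These are matches of letters and no measure of binding.

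Among the other chromatin regulators, seq D gave lower values for most and none was called. The signal of Asxl1, a Polycomb-associated cofactor of the BAP1 deubiquitinase, was 11.39, 11.30 and 11.90 with Scr, 11.52, 11.50 and 10.64 with seq C, and 10.94, 10.65 and 10.34 with seq D. Every seq D array lay below every control array, and array C 12 lay with them. The difference for seq D was -0.89 ± 0.28 (adjusted p = 0.221, 95% interval -1.52 to -0.25) and for seq C -0.31 ± 0.28 (adjusted p = 0.927). The 30 genes around Asxl1 on chromosome 2 had a median of -0.26 with seq D and 21 of 30 negative values.

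Dnmt3a, a DNA methyltransferase that sets new methylation, was 9.71, 9.19 and 9.89 with Scr, 10.17, 10.29 and 8.89 with seq C, and 9.44, 8.54 and 8.10 with seq D. The groups overlapped, since array D 13 lay within the range of the controls. The difference for seq D was -0.90 ± 0.43 (adjusted p = 0.405). Men1, which encodes menin, the partner of the MLL methyltransferase, was 13.95, 13.05 and 13.95 with Scr, 13.78, 14.13 and 12.51 with seq C, and 13.81, 12.49 and 11.95 with seq D. Again D 13 lay among the controls, while D 14, D 15 and C 12 gave the 3 lowest values; the difference for seq D was -0.90 ± 0.54 (adjusted p = 0.502).

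Ezh2, the methyltransferase of Polycomb repressive complex 2, was near 13.74 with Scr, 13.51 with seq C and 13.53 with seq D. Tet2, which oxidises methylated cytosine, was 7.62, 8.37 and 7.69 with Scr, 7.81, 7.88 and 8.37 with seq C, and 8.36, 7.88 and 9.11 with seq D. It was the only chromatin regulator with a positive value for seq D, 0.56 (adjusted p = 0.496), and its groups overlapped. Over the 6 chromatin regulators the median difference was -0.77 with seq D, with 5 negative, and -0.02 with seq C, with 3 negative, beside medians of -0.06 and -0.04 over all probe sets above the receptor level.

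Runx1 and Fli1 were the 2 genes of the stem cell core above the receptor level. Runx1, the runt-domain factor needed for blood stem cells to arise, was 10.37, 9.64 and 10.53 with Scr, 11.97, 12.49 and 10.91 with seq C, and 11.94, 10.07 and 10.81 with seq D. All seq C arrays lay above all controls, whereas the seq D arrays ran across the range of both. Seq C stood 1.61 ± 0.52 above the controls (95% interval 0.44 to 2.78, adjusted p = 0.299), the largest difference of any member in either comparison with Scr and 305% of the control signal. Seq D stood at 0.76 ± 0.52 (adjusted p = 0.555). Of the spread of Runx1 within groups, 90.8% lay on the axis shared by the arrays, the highest share among the 15 members above the receptor level.

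Fli1, an ETS factor of stem cells and megakaryocytes, was 11.60, 11.58 and 12.05 with Scr, 11.67, 11.60 and 11.82 with seq C, and 11.15, 10.94 and 10.30 with seq D. Seq D lay below both other groups without overlap, and seq C lay within the range of the controls. The difference for seq D was -0.95 ± 0.23, or 51.9% of the control signal (adjusted p = 0.123, 95% interval -1.47 to -0.42), and between seq D and seq C -0.90 ± 0.23 (adjusted p = 0.152). The shared axis held 9.25% of the spread of Fli1 within groups. The 30 genes around Fli1 on chromosome 9 had medians of -0.48 with seq D and -0.36 with seq C, each with 24 of 30 negative, and a median of 0.05 between the hairpins. The part of that stretch of chromosome 9 in the values of Fli1 against the controls was not tested.

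Gata2, Erg, Lmo2 and Tal1, the other core factors, had control means of 5.92, 5.78, 6.46 and 5.18, below the receptor level. Their largest difference from the controls in size was that of Lmo2, an adaptor between TAL1 and GATA factors, at 6.46 with Scr and 6.88 with seq D. For probe sets this dim, a difference may be understated, and a missing call says little of the gene.

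The homeobox genes were also dim apart from Pbx3, a TALE homeodomain partner of HOXA proteins. Pbx3 was 11.50, 11.14 and 10.97 with Scr, 10.94, 11.20 and 11.28 with seq C, and 11.34, 10.84 and 11.09 with seq D. The 3 groups overlapped, and both intervals were narrow: -0.50 to 0.38 with seq C and -0.55 to 0.33 with seq D, so a change of 1 log2 unit in either direction lies outside them.

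Hoxa5 was 5.76, 5.18 and 5.56 with Scr, 5.18, 5.09 and 5.60 with seq C, and 4.86, 4.79 and 5.66 with seq D. Hoxa10 was 6.43, 6.76 and 6.06 with Scr, 6.26, 5.99 and 6.53 with seq C, and 5.89, 6.24 and 6.33 with seq D. Both genes are stem cell homeobox genes of the HOXA cluster, and for both the groups overlapped, with differences from the controls between -0.40 and -0.16. Meis1, the TALE cofactor that HOXA9 leukaemias depend on, was 6.54, 6.48 and 6.79 with Scr, 6.63, 6.68 and 6.63 with seq C, and 6.42, 6.32 and 6.38 with seq D. The seq D arrays lay just below the controls, by 0.23 on average, but all 9 values were below the receptor level and the adjusted p was 0.495.

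The surface proteins gave no array above the receptor level for Kit or Flt3, the receptors of stem cell factor and FLT3 ligand. Kit was 5.55, 5.26 and 5.77 with Scr, 6.68, 5.48 and 5.89 with seq C, and 5.55, 5.32 and 4.97 with seq D. A single array, C 10, set the mean of seq C apart, at 0.49 ± 0.30 from the controls (adjusted p = 0.791). Flt3 ranged from 4.51 to 4.96 over all 9 arrays, with -0.14 ± 0.15 for either hairpin. Cd34, a sialomucin of stem and progenitor cells, was 6.59, 6.54 and 6.47 with Scr, 6.45, 6.67 and 7.61 with seq C, and 6.73, 6.96 and 7.66 with seq D. Only C 12 and D 15 reached above the receptor level, both on the same side of the shared axis, and the difference for seq D was 0.58 (adjusted p = 0.469). Prom1, another progenitor surface protein, had means of 5.99, 5.87 and 5.98 in the same order.

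Of the other nuclear regulators, Myc, the growth-promoting transcription factor of most leukaemias, was 13.85, 13.23 and 13.65 with Scr, 13.90, 14.00 and 12.38 with seq C, and 14.28, 13.29 and 13.15 with seq D. The group means, 13.58 ± 0.32, 13.43 ± 0.91 and 13.57 ± 0.62, lay within the spread of the arrays, and C 12 was the lowest array of all. The intervals were -1.17 to 0.87 with seq C and -1.02 to 1.01 with seq D, so a change of up to about a doubling cannot be told from no change here. Myb, which progenitors need to proliferate, was 9.91, 11.36 and 10.99 with Scr, 10.62, 10.43 and 9.89 with seq C, and 10.31, 9.81 and 9.89 with seq D. One control array, Scr 7, lay among the hairpin arrays, and the difference for seq D was -0.75 ± 0.36 (adjusted p = 0.401).

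Ikzf2 (Helios), an Ikaros-family zinc finger factor, was 11.40, 10.82 and 11.95 with Scr, 11.76, 11.43 and 10.88 with seq C, and 11.07, 10.08 and 9.58 with seq D. D 13 lay within the control range and D 14 and D 15 below it. The difference for seq D was -1.15 ± 0.42 (adjusted p = 0.273), the most negative of the 29 members in that comparison, and for seq C -0.03 ± 0.42. Its relative Ikzf1 had means of 15.44, 15.37 and 15.27. Etv6, an ETS repressor, had means of 13.38, 13.44 and 13.13, and Mn1, a transcriptional cofactor of myeloid leukaemia, 7.41, 7.39 and 7.60.

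Wt1, a zinc finger factor of leukaemic blasts, was 5.81, 5.98 and 6.05 with Scr, 5.89, 5.91 and 6.05 with seq C, and 6.27, 6.71 and 6.25 with seq D. The seq D arrays lay above the rest without overlap, by 0.46 ± 0.16 over the controls (adjusted p = 0.264), though all 9 values stayed below the receptor level. Sox4 had means of 5.55, 5.69 and 5.70, and Mecom, a stem cell zinc finger factor, 7.05, 7.23 and 7.26.

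Counted over the members, with both hairpins set against the same controls, the directions were as follows. With seq C, 14 differences were positive and 15 negative, with a median of -0.02 beside 0.00 over all probe sets, and the 3 arrays lay entirely above the controls in 2 members (Runx1 and Bmi1) and entirely below in 0. Over all probe sets, 7.5% lay entirely above the controls in that comparison and 6.74% entirely below. With seq D, 10 differences were positive and 19 negative, with a median of -0.17 beside 0.04, and the arrays lay entirely above the controls in 2 members (Cd34 and Wt1) and below in 5 (Meis1, Gata2, Fli1, Bmi1 and Asxl1); over all probe sets 10.3% lay entirely above and 6.65% entirely below. Between the hairpins, 1 member (Wt1) lay entirely higher with seq D, where 8.99% of all probe sets did, and 4 (Meis1, Fli1, Etv6 and Bmi1) entirely lower, where 6.26% did.

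Among the 15 members above the receptor level, the values for seq D were mostly negative. There, 12 of 15 were negative with a median of -0.25, beside -0.06 over all 9383 probe sets above that level, and 3 lay entirely below the controls (9.93% of those probe sets did). With seq C, 10 of 15 were negative with a median of -0.05, beside -0.04, and 2 lay entirely above (8.43% did). Between the hairpins, 3 lay entirely lower with seq D (8.82% did). These 15 were chosen by level over all arrays, and no p-value is attached to their counts.

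**Figure D3:**
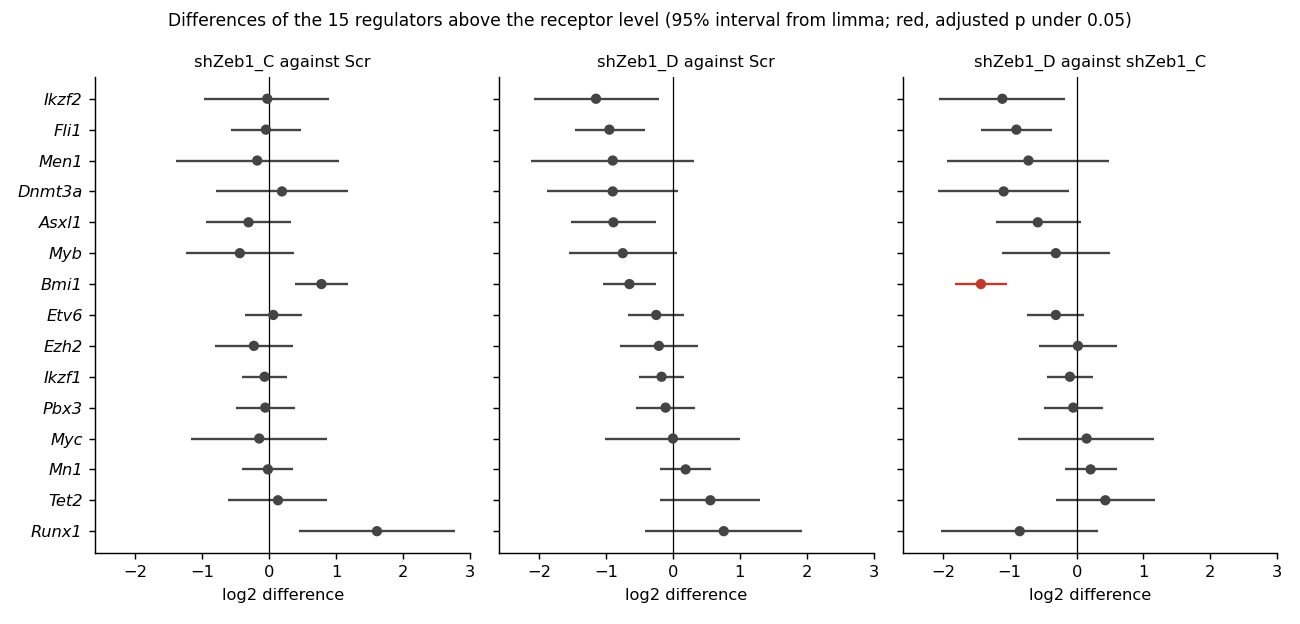
Log2 difference (horizontal axis, in log2 units) of the 15 regulators above the receptor level (vertical axis) for shZeb1_C against Scr, shZeb1_D against Scr and shZeb1_D against shZeb1_C, with 95% intervals from limma and red where the adjusted p was under 0.05. The only red point is Bmi1 between the hairpins, at -1.43.

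The arrays that lay on one side of the shared axis also carried much of the spread in several members. That axis held 89.9% of the spread within groups of Men1, 89.6% of Myc, 88.8% of Dnmt3a, 75.8% of Ikzf2 and 70.0% of Asxl1. Runx1 moved with these genes, whereas Ezh2 (25.0% of its spread) and Tet2 (22.6%) ran the opposite way and Pbx3 (4.66%) and Myb (3.04%) were nearly apart from it. The median over the 15 members was 25.0%, beside 56.9% over all probe sets above the receptor level. The seq D group had 2 of its 3 arrays on the side of Scr 8 and C 12, while Scr and seq C had 1 each. A side is relative to the array's own group mean, so these counts cannot show whether a whole group was shifted along the axis. The part of the shared axis in the seq D values of Men1, Dnmt3a, Ikzf2 and Asxl1 was not tested.

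**Figure D4:**
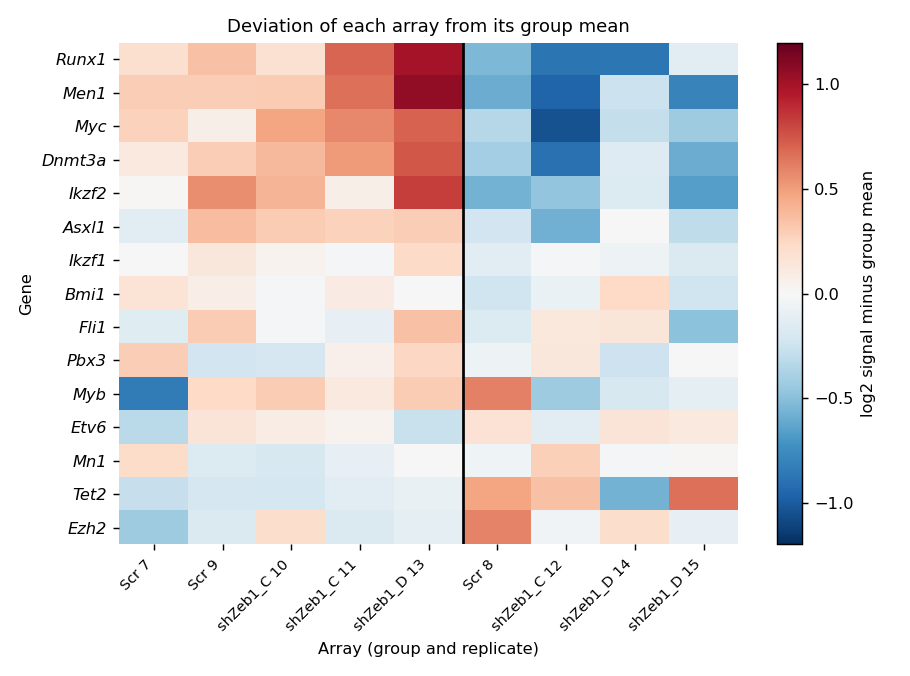
Deviation of each array (horizontal axis, group and replicate) from its own group mean in log2 units (colour) for the regulators above the receptor level (vertical axis). Scr 8, C 12, D 14 and D 15 stand together below their group means for Runx1, Men1, Myc and Dnmt3a, and Bmi1 has small deviations throughout.

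The genes around Bmi1 in its pathway were measured next. Of 27 Polycomb and BAP1 genes on the arrays, 0 were called in any comparison. None of the other PCGF subunits, which take the place of BMI1 in other forms of Polycomb repressive complex 1, was called between the hairpins. Pcgf1 had means of 11.84, 12.02 and 12.48 with Scr, seq C and seq D, Pcgf2 8.30, 7.95 and 7.42, and Pcgf6 11.22, 10.94 and 11.25. Rnf2, the ubiquitin ligase that pairs with BMI1, was 12.50, 12.55 and 12.60 with Scr, 12.23, 12.19 and 12.02 with seq C, and 12.04, 12.10 and 11.83 with seq D. Both hairpins lay below the controls without overlap, by 0.40 and 0.56 on average, with adjusted p of 0.344 and 0.123. Cdkn2a, a classical target silenced by BMI1, was 11.00, 13.46 and 11.86 with Scr, 10.94, 10.72 and 12.32 with seq C, and 11.08, 12.69 and 12.69 with seq D. Its arrays ranged so widely in each group that the difference between the hairpins, 0.83 ± 0.69, had an adjusted p of 0.688. The highest arrays of each group were those on 1 side of the shared axis, Scr 8, C 12, D 14 and D 15. The part of that axis in the values of Cdkn2a was not tested.

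Beyond the members themselves, 1 gene of DNA methylation was called. Of its 11 measured genes, 1 was called lower with seq D (0.445% of all probe sets were) and 0 with seq C. That gene was Dnmt1, the maintenance methyltransferase, at 13.48, 13.00 and 13.60 with Scr, 12.68, 12.41 and 12.40 with seq C, and 12.38, 12.29 and 11.74 with seq D. All 6 hairpin arrays lay below all 3 controls, and with seq D the signal fell by 1.22 ± 0.22 on the log2 scale, to 42.8% (adjusted p = 0.0458), beside -0.86 ± 0.22 with seq C (adjusted p = 0.156). The seq D call stood at the edge of the threshold and was lost in 12 of 18 alternatives, with adjusted p from 0.0506 to 0.238. Among these was leaving out any 1 array other than Scr 8. For the mean of both hairpins Dnmt1 was also called lower, at -1.04 (limma adjusted p = 0.0498). In that comparison 0.828% of all probe sets were called in either direction, and the Dnmt1 call was lost in 11 of 17 alternatives. The 30 genes around Dnmt1 on chromosome 9, from Med17 to Timm29, had medians of -0.78 with seq D and -0.59 with seq C, with 26 and 28 of 30 negative, and the part of that stretch in the value of Dnmt1 was not tested.

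The Myc network and the Myc targets had no call either. Of 25 measured targets, mostly genes of ribosome assembly and nucleotide synthesis, 22 had a negative difference with each hairpin. The medians were -0.23 for seq C and -0.28 for seq D, beside 0.00 and 0.04 over all probe sets. For the 24 targets above the receptor level the median was -0.24 with either hairpin, beside -0.04 and -0.06 over all probe sets above it. The share of negative values among all probe sets was not counted, and both comparisons use the same control arrays. Ppan, a ribosome assembly factor, had means of 13.58 with Scr, 12.63 with seq C and 12.44 with seq D, with differences of -0.95 ± 0.29 (adjusted p = 0.244) and -1.15 ± 0.29 (adjusted p = 0.127). Of 12 genes of the Myc network, Mxi1, a MAX partner that opposes MYC, had means of 8.92, 8.73 and 7.75 and a difference of -1.17 ± 0.30 with seq D (adjusted p = 0.14).

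Signalling genes downstream of KIT and FLT3 gave 0 calls among 23 measured. Inpp5d, which encodes the lipid phosphatase SHIP1, was 12.13, 11.71 and 12.43 with Scr, 13.63, 12.96 and 12.88 with seq C, and 12.18, 11.67 and 11.52 with seq D. The seq C arrays lay above all others, by 1.07 ± 0.27 over the controls (adjusted p = 0.153), and seq D against seq C gave -1.37 ± 0.27 (adjusted p = 0.0642). Nras, a RAS family switch protein, stood at 0.71 ± 0.15 with seq C (adjusted p = 0.075).

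Calls were also absent from the remaining nuclear lists. Of 40 other Hox and TALE genes, 8 lay above the receptor level and 0 were called; Pbx2 had means of 12.26, 11.36 and 10.99, with -1.27 ± 0.37 for seq D (adjusted p = 0.191). Of 33 other blood transcription factors 0 were called, with Id2, an inhibitor of basic helix-loop-helix factors, at 7.64, 9.96 and 8.10 and a difference of 2.33 ± 0.74 with seq C (adjusted p = 0.291). Of 15 partners of menin and MLL, and of 13 genes of the Ikaros and NuRD complexes, 0 were called.

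Among other stem cell surface genes, 1 was also called. Of 17 measured, 1 was called higher with seq C (0.659% of all probe sets were) and 0 with seq D. It was Cd44, the hyaluronan receptor of normal and leukaemic stem cells, at 7.16, 6.85 and 7.17 with Scr, 10.20, 9.71 and 11.71 with seq C, and 8.98, 8.16 and 8.41 with seq D. The 3 groups did not overlap, and all 3 controls lay below the receptor level, so the size of the difference may be understated. Cd44 rose by 3.48 ± 0.45 with seq C (adjusted p = 0.0107), a call lost without array 9 (adjusted p = 0.0562), and stood at 1.46 ± 0.45 with seq D (adjusted p = 0.211), which passed the threshold without array 12 (adjusted p = 0.0335). The difference between the hairpins was -2.02, with an adjusted p of 0.0947. For the mean of both hairpins Cd44 was also called higher, at 2.47 (limma adjusted p = 0.0255), a call lost in 5 of 17 alternatives. In that comparison 0.828% of all probe sets were called in either direction. Among the T and NK cell markers, Nkg7 and Gzmb were also called higher with seq C, and whether they move with Cd44 in the same cells cannot be told from bulk RNA.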

How the data were processed

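RNA of 9 samples was hybridised to expression arrays, 3 for each of 3 groups. The authors' deposited values were linear RMA signals with the decimal point missing; RMA and Transcriptome Analysis Console are named in the submitters' processing notes, without versions, and no genome build is given in the sources used here. The log2 signals were recovered from these values: each of 199854 cells fell on a multiple of 0.01 on the log2 scale, the farthest by 1.1e-12 steps. Of 22206 probe sets, 19572 had 1 gene symbol and were tested, and 2634 unnamed ones were left out. Array correlations were 0.9777 to 0.9949 within groups and 0.9684 to 0.9889 between groups, so the ranges overlapped, with 0 identical pairs.

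A group-mean model on all 9 arrays was fitted in limma 3.58.1 (R 4.3.3) with eBayes and Benjamini-Hochberg adjustment over all 19572 probe sets, with 0.05 as the threshold for a call. The procedure was tested on simulated data. There the spread was independent for each probe set, without the axis that these arrays share, so that test does not show the rate of false calls here. The number of arrays limits the precision. Members and lists were chosen with earlier results of these data known. Given in full were members called in any comparison, the homeobox genes, Kit, Myc and Myb, with Flt3 by its range. Members above the receptor level were also given in full where all arrays of 1 group lay beyond those of another. There the group means had to differ by at least 0.5. Cd34 was given in full outside these rules. Dnmt3a, Men1, Tet2, Ikzf2, Wt1, Pcgf genes, Rnf2 and Cdkn2a were chosen after their values were seen. Other settings are in the closing section. The expression of Hoxa7 and Hoxa9 was not analysed here.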

Additional observations from a re-analysis of the deposited data

Results flagged for a closer look

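The response of Bmi1 differed between the hairpins by a direct test: seq D against seq C gave -1.43 on the log2 scale (limma adjusted p = 0.00793), with seq C at 0.78 and seq D at -0.65 from the shared controls. In these 6 arrays, 3 of 3 with seq D lay below 3 of 3 with seq C. No other member met this test at an adjusted p under 0.05.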

How the results depend on the processing

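No paired analysis was possible because the replicate numbers run on from group to group and none is shared. The difference of Bmi1 between the hairpins stayed called under all 18 alternatives run (-1.55 to -1.31, adjusted p 0.00214 to 0.0435). Not all of these could have changed the call. Taking the lowest-mean probe set repeats the main fit, since Bmi1 had 1 probe set, and a threshold of 0.10 cannot lose a call. With array weights estimated by limma, 2 members were called with seq C (Runx1 and Bmi1) and 4 with seq D (Fli1, Asxl1, Bmi1 and Ikzf2). Between the hairpins 4 were called (Bmi1, Dnmt3a, Fli1 and Ikzf2), and the main fit gave 0, 0 and 1. At a threshold of 0.10 the count of called members was 1 with seq C (Bmi1). The share of all probe sets called in these settings was not counted. A rise in calls over all probe sets therefore cannot be told apart from one among the members. Leaving out each array in turn gave 0 to 0 members with seq C, 0 to 0 with seq D, 0 to 0 for the mean of both and 1 to 1 between the hairpins. The fall of Zeb1 with seq D was -1.05 with adjusted p = 0.0626 when only seq D and Scr were fitted and -1.05 with adjusted p = 0.0796 with a trended, robust prior; leaving out an array gave -1.13 to -0.98. The cause was not tested. The alternatives for Dnmt1 and Cd44 were chosen after seeing the data. The 14 members below the receptor level are limited by signal, and 3 arrays a group cannot give an exact permutation p under 0.10.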
